A study of Mus musculus with 24 samples.

Results

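Rag2-GFP-positive and Rag2-GFP-negative HSC of Tal1-deleted mice were compared across all genes in 6 libraries, 3 on each side, of 24 in the series. Members were chosen by label alone: genotype Tal1-deleted, CD135-negative LSK gate, and sorted GFP-positive or GFP-negative. The series profiled bulk RNA of mouse bone marrow LSK progenitors (lineage-negative, Sca1-positive, Kit-positive cells), divided by CD135, the protein of Flt3, into CD135-negative cells, called HSC, and CD135-positive cells, called LMPP (lymphoid-primed multipotent progenitors). Each was divided again by a GFP reporter of Rag2. Both groups compared here were of VaviCre Tal1F/F Rag2GFP mice, called KO, in which floxed Tal1 is deleted by a Cre that is active throughout the blood system. Control mice, called Ctrl, are labelled wild type (Tal1 F/F) Rag2GFP and enter below as the same GFP comparison with Tal1 intact. All groups carried the floxed Tal1 alleles and the reporter. The labels give no age or treatment.

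TAL1 is a basic helix-loop-helix transcription factor that pairs with E proteins on E-box sequences (CANNTG) and works with GATA factors, LMO2 and LDB1. It is needed to form blood stem cells and for the erythroid, megakaryocyte and mast cell lineages. RAG2 and RAG1 form the recombinase that rearranges antigen receptor genes, so transcription of Rag2 in progenitors is taken as a sign of lymphoid priming. A Rag2 reporter that is on within the CD135-negative stem cell gate therefore marks cells that carry both a stem cell surface phenotype and a lymphoid transcript.

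Promoter sequences of 6 genes that passed the test below are given first to show where motifs of the TAL1 and GATA partners and of the ETS factor PU.1 lie in genes of each lineage that moved. They are RefSeq sequences (GRCm38.p6), 5′ to 3′ on the gene's strand, of up to 250 bases before the start, cut before the first annotated exon. Capitals mark CANNTG, the GATA-type letters AGATAA or TGATAA, and the ETS-type letters GAGGAAGT. A match on the other strand is capitalised in its reverse complement, and no matches overlapped. Pf4 (chr5:90772185-90772434, plus strand) and Gp1ba (chr11:70638872-70639121, plus strand) encode platelet proteins, Klf1 (chr8:84901732-84901927, plus strand) the erythroid transcription factor, and Mcpt4 (chr14:56062314-56062560, minus strand) a mast cell protease, and all of them fell. Dntt (chr19:41029025-41029274, plus strand) encodes the lymphoid DNA polymerase TdT and Atp8b4 (chr2:126491574-126491803, minus strand) a membrane lipid transporter, and both rose. RefSeq's start of Atp8b4 lies 9121 bases inside the gene as GENCODE places it, so its window shows an inner start. The other 5 windows lie within 54 bases of the GENCODE start.
Pf4: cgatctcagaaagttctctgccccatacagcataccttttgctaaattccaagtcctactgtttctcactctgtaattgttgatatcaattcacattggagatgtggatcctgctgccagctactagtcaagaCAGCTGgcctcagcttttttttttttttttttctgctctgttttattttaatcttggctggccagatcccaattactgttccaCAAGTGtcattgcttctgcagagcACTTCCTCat
Gp1ba: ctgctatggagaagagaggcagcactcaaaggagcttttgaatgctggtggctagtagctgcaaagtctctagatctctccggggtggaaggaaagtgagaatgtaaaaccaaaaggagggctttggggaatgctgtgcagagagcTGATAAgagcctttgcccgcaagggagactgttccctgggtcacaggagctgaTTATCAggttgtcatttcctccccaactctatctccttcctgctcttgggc
Klf1: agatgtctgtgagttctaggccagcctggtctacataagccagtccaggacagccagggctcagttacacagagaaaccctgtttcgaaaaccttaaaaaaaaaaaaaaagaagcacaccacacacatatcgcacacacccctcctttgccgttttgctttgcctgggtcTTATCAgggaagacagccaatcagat
Mcpt4: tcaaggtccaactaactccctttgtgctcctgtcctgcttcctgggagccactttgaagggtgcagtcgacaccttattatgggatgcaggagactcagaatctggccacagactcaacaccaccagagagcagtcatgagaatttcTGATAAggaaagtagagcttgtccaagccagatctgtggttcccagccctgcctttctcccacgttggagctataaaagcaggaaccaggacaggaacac
Dntt: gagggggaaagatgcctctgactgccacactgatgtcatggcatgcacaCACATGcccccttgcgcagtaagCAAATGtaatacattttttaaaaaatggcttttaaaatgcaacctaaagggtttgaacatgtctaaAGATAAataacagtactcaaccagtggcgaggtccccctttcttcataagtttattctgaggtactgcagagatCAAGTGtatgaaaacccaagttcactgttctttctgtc
Atp8b4: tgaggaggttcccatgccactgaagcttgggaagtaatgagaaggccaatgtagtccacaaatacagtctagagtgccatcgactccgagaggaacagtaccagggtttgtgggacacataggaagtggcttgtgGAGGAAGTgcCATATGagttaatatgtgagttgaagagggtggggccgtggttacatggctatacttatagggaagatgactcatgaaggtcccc
Gp1ba held 2 GATA-type matches and no CANNTG, whereas Dntt held 3 CANNTG matches and 1 GATA-type match. Windows of 250 bases before the start were found for 16 of the genes that rose and 26 of those that fell, 4 and 1 of them more than 1000 bases from the GENCODE start. AGATAA or TGATAA, on either strand, stood in 9 windows of genes that fell (34.6%) and 3 of those that rose (18.8%), against 17% of all 27025 windows. CANNTG stood in 57.7% and 68.8%, against 66% of all. GAGGAAGT stood in 3 windows of genes that rose (Mpo, Atp8b4 and BC035044, 18.8%) and 1 of those that fell (Pf4, 3.85%), against 2.44% of all. TGTGGT, a RUNX-type motif, stood in 12.5% and 23.1%, against 14.2%. These are letter matches in short windows and were not tested as binding sites.

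Values are the authors' normalised counts, whose depth in reads is unknown, and are given for replicates 1 to 3 in that order. Library totals of the 6 KO HSC libraries ran from 6906083 to 7949446, and 14978 to 15957 genes stood above 1 normalised count. In the whole series 2 libraries of other groups (Ctrl HSC GFP-positive replicate 2 and KO LMPP GFP-positive replicate 3) had only 11982 and 11684 such genes. They enter the spread that all groups share. Replicate 3 of every group had little Xist and had Y-linked transcripts and replicates 1 and 2 the reverse, so sex was balanced between the GFP groups, and replicate 3 and sex cannot be told apart. The labels give each replicate of a genotype a number that its 4 sorted populations share, and do not say whether it stands for an animal. Replicate 3 differs in sex from the others, so it came from other animals, whereas replicates 1 and 2 are not said to be separate, and part of the spread behind the p-values may be technical. In bulk RNA, fewer cells of a type and less RNA per cell cannot be told apart.

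The sort was checked on Rag2 and the deletion on Tal1. Rag2 (chromosome 2, 101624718 to 101632529, plus strand, GRCm38/mm10) stood at 75.9, 68 and 107 normalised counts in GFP-negative cells and 316, 429 and 376 in GFP-positive cells. All GFP-positive libraries lay above all GFP-negative ones, but the difference did not pass over all genes (log2 change 2.12, SE 0.52, adjusted p = 0.0828 in limma's test), and the exact two-sided permutation p of 0.1 is the smallest that 3 against 3 libraries allow. With the low-detection pair left out it passed (adjusted p = 0.0191), as it did from the 6 KO HSC libraries alone (adjusted p = 0.00646). Rag2 did not pass with the smaller pseudocount (adjusted p = 0.162) or with libraries scaled to the same total (adjusted p = 0.0637). Nor did it with libraries shifted to the same median (adjusted p = 0.141) or without any 1 of the 6 libraries (adjusted p from 0.0883 to 0.461). Tal1 (chromosome 4, 115056426 to 115071755, plus strand) stood at 322, 518 and 253 in GFP-negative and 308, 281 and 140.4 in GFP-positive cells, which overlapped (log2 change -0.59, SE 0.70, adjusted p = 0.999, exact two-sided permutation p = 0.4). In Ctrl HSC it ranged from 1523 to 2109 in GFP-negative and 326 to 815 in GFP-positive cells. These are totals over the gene, in which the deleted exons and the exons left in place are not distinguished. Of the gate's markers, Kit ranged from 3855 to 8066 over the 6 libraries and Ly6a, which encodes Sca1, from 46.1 to 294. The stem cell genes Hlf, Meis1 and Mecom were present in all 6, while Procr was listed at 0 in a library of each group. Of lineage antigens, Cd3e reached at most 9.8, Ly6g at most 34.5 and Itgam at most 635.

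Across the 16215 genes tested, 25 rose and 36 fell in GFP-positive cells at an adjusted p under 0.05, 61 in all or 0.376% of those tested (0.154% higher and 0.222% lower). An unadjusted p under 0.05 was found for 878 genes (5.41%). Among the rises were genes of early lymphoid and early granulocyte cells, Dntt, Flt3, Notch1 and Mpo. Among the falls were genes of the platelet, erythroid and mast cell lineages, Pf4, Gp1ba, Klf1, Aqp1, Mcpt4 and Tpsb2. Changes are on the scale log2(value + 4.1), which understates those of genes near 0. Rises spanned 1.41 to 3.31 (median 2.26) and falls 1.01 to 6.0 in size (median -3.78), beside a median of -0.05 over all genes. The libraries did not overlap in 24 of the rises and all the falls, where over all genes 15.5% did not overlap. In 32 of the 36 falls every GFP-positive library stood under 20 normalised counts. The filter on low values kept 11 of the 36 falls only through the GFP-negative KO HSC libraries, among them Tpsb2, Fcer1a, Mcpt1, Mcpt2 and Kif26b, and 1 of the 25 rises only through the GFP-positive ones. A gene kept in that way had to differ between the groups, so its change is a description and the counts of calls are no support by themselves.

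**Figure D1:**
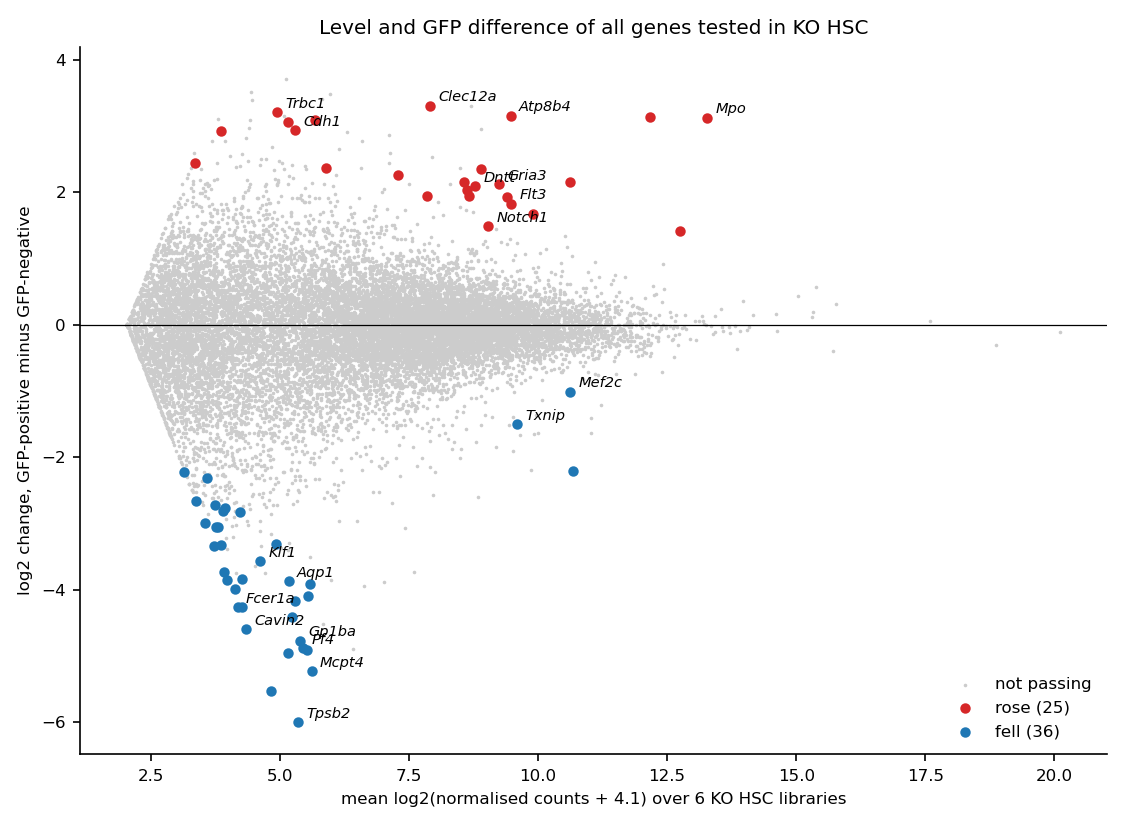
Mean level of each tested gene over the 6 KO HSC libraries (x axis, log2 of normalised counts + 4.1) against its log2 change, GFP-positive minus GFP-negative (y axis), one point a gene, with the 25 that rose in red and the 36 that fell in blue. Mpo lies farthest to the right among the rises, and most falls lie at the lower edge, where the GFP-positive value is near 0.

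Many calls did not pass when 1 library was left out. Such a fit also has fewer libraries, so a lost call does not by itself show dependence on the library left out. GFP-negative replicate 3 was the lowest of its group in 31 of the 36 falls, so the gap was narrower there. Without it 31 genes rose and 66 fell, and 33 of the 36 falls were kept. Without GFP-negative replicate 1, 11 of the rises and 8 of the falls were kept, and without GFP-negative replicate 2, 11 and 10. Without GFP-positive replicate 1 the kept calls were 14 and 21, without replicate 2 they were 18 and 27, and without replicate 3 they were 13 and 15. Passing in all 6 fits that left out 1 library were 8 rises (among them Clec12a, Atp8b4, Mpo, its antisense neighbour Gm11505, Cdh1, Gria3 and Parp8) and 7 falls (Ces2g, Pf4, Cavin2, Nckap1, Mt2, Pklr and the predicted gene Gm15915). Without the 2 libraries of low detection, neither of them in this comparison, 62 genes rose and 84 fell, including all 61.

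Of 22 genes of lymphoid priming tested, 4 rose (among them Notch1, Dntt and Flt3) and 1 fell (Mef2c), with a list median of 0.87. Over all genes 0.154% rose and 0.222% fell. In GFP-positive cells 8 of the list lay higher without overlap and 2 lower, where the shares over all genes were 6.44% and 9.04%. Notch1, the receptor that directs T lineage choice, stood at 349, 216 and 393 and then 777, 796 and 1087 (log2 change 1.49, SE 0.28, adjusted p = 0.00839), with no overlap. Its call was lost without GFP-negative replicate 2 or GFP-positive replicate 3 (adjusted p up to 0.139) and with libraries shifted to the same median (adjusted p = 0.1). Dntt, whose product TdT adds bases at antigen receptor joints, stood at 275, 97.9 and 336 against 1207, 535 and 1167 (log2 change 2.10, SE 0.44, adjusted p = 0.0231). Replicate 2 was the lowest of each group and the groups did not overlap. Flt3 encodes CD135, the antigen that the gate excluded, and stood at 369, 177 and 796 against 1461, 747 and 2189 (log2 change 1.83, SE 0.40, adjusted p = 0.0314). Its groups overlapped, GFP-negative replicate 3 lying above GFP-positive replicate 2. The call of Dntt was lost without GFP-negative replicates 1 or 2 or GFP-positive replicates 1 or 3 (adjusted p up to 0.396), and that of Flt3 without GFP-negative replicates 1 or 2 or GFP-positive replicates 1 or 3 (adjusted p up to 0.461). Dntt also failed to pass with libraries shifted to the same median (adjusted p = 0.101), and Flt3 from the 6 libraries alone (adjusted p = 0.0823), with libraries scaled to the same total (adjusted p = 0.0555) and with libraries shifted to the same median (adjusted p = 0.0897).

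Mef2c, a transcription factor of lymphoid progenitors, went the other way. It stood at 1944, 2715 and 2129.6 in GFP-negative and 855, 1127 and 1408 in GFP-positive cells (log2 change -1.01, SE 0.23, adjusted p = 0.0456), without overlap. It did not pass with libraries scaled to the same total (adjusted p = 0.19) and with libraries shifted to the same median (adjusted p = 0.357) and was lost without GFP-negative replicates 1, 2 or 3 or GFP-positive replicates 1 or 2 (adjusted p up to 0.443). Further members had libraries that did not overlap and did not pass. Satb1, a chromatin organiser of early lymphocytes, stood at 1025, 929 and 1507 against 2338, 2135 and 2519.9 (log2 change 1.04, adjusted p = 0.153). Tcf7, the T cell factor TCF1, stood at 2.32, 5.03 and 21.2 against 176, 61.3 and 83.2 (3.15, adjusted p = 0.364). Il7r, the receptor for interleukin 7, stood at 6.86, 32.9 and 3.74 against 65.6, 42.1 and 87.2 (2.18, adjusted p = 0.635), low in every library. Foxo1, a forkhead factor of lymphocyte development, lay lower in all GFP-positive libraries, at 225, 230.0 and 209 against 137, 63.7 and 47.1 (-1.51, adjusted p = 0.443). Ikzf1, the Ikaros gene, overlapped between the groups at 4166, 4271 and 3725 against 4913, 3482 and 2799 (-0.16).

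Of 15 genes of antigen receptor recombination 1 rose, Dntt, and none fell, with a median of 0.06. In GFP-positive cells 2 lay higher without overlap and 2 lower, where the shares over all genes were 6.44% and 9.04%. Rag1, the catalytic partner of RAG2, stood at 20.4, 55.1 and 24 in GFP-negative and 44.1, 64.5 and 48.1 in GFP-positive cells, which overlapped (log2 change 0.69, SE 0.70, adjusted p = 0.999). Rag1 and Rag2 lie within the span of B230118H07Rik, and no source used here gives the strand setting of the counting, so reads of these genes may be shared. Prkdc, the DNA-dependent protein kinase, stood at 719, 965 and 974 against 623, 943 and 1294 (0.06), which overlapped. Hmgb1, a chromatin protein that assists RAG cutting, stood at 1390.3, 11304 and 2463 against 1245, 1276 and 1289, where GFP-negative replicate 2 was far above all others.

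None of 10 B lineage genes passed in either direction (median 0.55). In GFP-positive cells 1 lay higher without overlap and 1 lower. Ighm, the immunoglobulin mu locus, stood at 1213, 753 and 842 against 3355, 1556 and 2419.6 without overlap (log2 change 1.34, SE 0.34, adjusted p = 0.0934). Of the committed B cell genes, Cd79a reached at most 6.15, Blk stayed under 1 in every library, and Ebf1 stood at 43.3 in GFP-positive replicate 1 and near or under 1 in the others. Of 16 T lineage genes 1 rose, Trbc1, a constant segment of the T cell receptor beta chain, and none fell (median 0.63). Without overlap 5 lay higher in GFP-positive cells and none lower, where the shares over all genes were 6.44% and 9.04%. Trbc1 stood at 6.86, 19.3 and 0 in GFP-negative cells and 101, 86.2 and 84.2 in GFP-positive cells (log2 change 3.21, SE 0.64, adjusted p = 0.0136). Its call was lost without GFP-negative replicates 1 or 3 or GFP-positive replicates 1 or 3 (adjusted p up to 0.113), and with the smaller pseudocount (adjusted p = 0.153). The gamma chain constant segment Tcrg-C4 stood under 1 in every GFP-negative library and at 7.66, 30.4 and 33.1 in GFP-positive cells (2.59, adjusted p = 0.0586), and Tcrg-C2 at 22.6, 3.88 and 20.1 (1.97, adjusted p = 0.197). These segments resemble each other, so the division of reads among them is uncertain. Cd3e and Zap70, genes of T cell receptor signalling, reached at most 9.8 and 3.74. Among 11 NK and innate lymphoid genes none passed (median 0.08), and Gzmb, granzyme B, stood at 839, 1098 and 282 against 317, 542 and 229.6. Of 7 Notch receptors and targets only Notch1 passed. The target Hes1 overlapped at 60.6, 70.5 and 15.9 against 18.8, 10.3 and 25.1, and Notch2 lay lower in all GFP-positive libraries at 2424, 2329 and 2568 against 1888, 1768 and 1823 (-0.42, adjusted p = 0.948).

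Mpo, which encodes the myeloperoxidase of neutrophil primary granules, rose in GFP-positive cells. It stood at 3358, 2519 and 4497 in GFP-negative and 38947, 48494 and 13470.0 in GFP-positive cells (log2 change 3.13, SE 0.49, adjusted p = 0.0015). GFP-positive replicates 1 and 2 were highest and replicate 3 lower, still above all GFP-negative libraries. Gm11505 overlaps Mpo on the opposite strand by 5361 bases and rose with it (3.14), and their reads cannot be told apart. Of 30 granulocyte and monocyte genes Mpo alone passed, but 11 lay higher in GFP-positive cells without overlap and 3 lower, where the shares over all genes were 6.44% and 9.04%. The list median was 1.06. Other primary granule genes lay higher without passing. Elane, neutrophil elastase, stood at 153, 210.3 and 143 against 2138, 3277 and 329.9 (2.96, adjusted p = 0.26). Ctsg, cathepsin G, stood at 94, 156 and 139.5 against 1344, 2109 and 770.1 (3.31, adjusted p = 0.0828). In both, GFP-positive replicate 3 was the lowest of its group. Irf8, a factor of monocytes and dendritic cells, stood at 57.8, 23.2 and 73.6 against 292, 441 and 388 (2.87, adjusted p = 0.0511), with replicate 3 level with the others. Csf3r, the G-CSF receptor, stood at 476, 304 and 613 against 979, 1319 and 1031 (1.30, adjusted p = 0.0511). Genes of later neutrophils lay lower, again without passing: Ltf, of secondary granules, stood at 109, 373 and 100.3 against 26.6, 26.2 and 23.1 (-2.49, adjusted p = 0.999) and Ngp at 432, 1269 and 301 against 194, 147 and 51.1 (-2.23, adjusted p = 0.868). The lysozyme gene Lyz2 stood at 1677, 1954 and 1428 against 1285, 1264 and 1305 (-0.38). Summed over the whole list the values were 9236, 11357 and 8955 in GFP-negative and 50569, 63587 and 19594 in GFP-positive libraries, and Mpo made up most of it in every GFP-positive library. Ly6g, the mature neutrophil antigen, was below 1 in 4 of the 6 libraries. Whether cells of this lineage take part in the rise of Mpo was not tested.

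Clec12a, an inhibitory lectin receptor, stood at 87.2, 52.4 and 81.5 against 841, 840.0 and 599.6 (log2 change 3.31, SE 0.41, adjusted p = 0.000132). Atp8b4 stood at 176, 177 and 409 against 1823, 2558 and 2057 (log2 change 3.16, SE 0.35, adjusted p = 2.44e-05), the smallest p of all genes. In both genes the groups were far apart, and both calls held without any 1 library. Mefv, the inflammasome sensor pyrin, was listed at 0 in 2 GFP-negative libraries and stood at 21.3, 81.3 and 25.1 in GFP-positive cells (adjusted p = 0.00839). Tlr7, a sensor of RNA, stood at 35.2, 9.57 and 28.5 against 108, 78 and 259 (adjusted p = 0.0348). Ccl9, a chemokine, stood at 214, 154 and 270.2 against 1273, 1151 and 841 (adjusted p = 0.00839). Ncf1, a subunit of the phagocyte NADPH oxidase, also rose (1.94, adjusted p = 0.0275). Il1r1, the receptor for interleukin 1, stood at 75.9, 38.1 and 106 against 339.9, 174 and 658 (log2 change 2.26, SE 0.51, adjusted p = 0.0429), and with Flt3 it made up the 2 rises among 27 cytokine receptors tested (median 0.07). The call of Tlr7 was lost without GFP-negative replicates 1 or 2 or GFP-positive replicates 1 or 3 (adjusted p up to 0.415), that of Il1r1 without GFP-negative replicates 1 or 2 or GFP-positive replicates 1 or 3 (adjusted p up to 0.443), that of Ccl9 without GFP-negative replicates 1 or 2 or GFP-positive replicate 1 (adjusted p up to 0.108) and that of Mefv without GFP-negative replicate 2 or GFP-positive replicate 2 (adjusted p up to 0.107). Ncf1 passed in 1 of these 6 fits. Il1r1 also did not pass with the replicate block (adjusted p = 0.0667), with the smaller pseudocount (adjusted p = 0.0564) and with libraries scaled to the same total (adjusted p = 0.0743), being the 1 rise lost under the block. Tlr7 did not pass from the 6 libraries alone (adjusted p = 0.0984) and with libraries scaled to the same total (adjusted p = 0.0504), nor Mefv from the 6 libraries alone (adjusted p = 0.0862).

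Cdh1, the gene of E-cadherin, was low and even in GFP-negative cells, at 11.4, 9.62 and 9.42, and stood at 67.3, 188 and 91.2 in GFP-positive cells (log2 change 2.94, SE 0.53, adjusted p = 0.00655). It was 1 of the 2 rises among 23 adhesion and homing genes, none of which fell (median 0.14). It passed in all 6 fits that left out a library but not with the smaller pseudocount (adjusted p = 0.204). Ccr2, a chemokine receptor, stood at 44.2, 50.5 and 65.7 against 255, 504 and 306 (2.60, adjusted p = 0.197), and Itgal, an integrin of leukocytes, at 417, 575 and 573 against 1134, 1102 and 1005 (1.06, adjusted p = 0.158), both without overlap. Regulators among the rises were Pou2f2, the B cell octamer factor Oct2, at 254, 158 and 133 against 699, 625 and 1134 (adjusted p = 0.0328), and Dtx4, a Deltex ubiquitin ligase, at 4.59, 10.9 and 10.5 against 122, 129.8 and 61.2 (adjusted p = 0.00839). Gria3, a glutamate receptor subunit, stood at 305, 243 and 319 against 1269.5, 1695 and 948 (adjusted p = 0.000633). Tifab, an inhibitor of TRAF6 signalling, stood at 7.99, 14.8 and 18.9 against 182, 155 and 107 (adjusted p = 0.0164). In each of these the GFP-positive libraries all lay above the GFP-negative ones. Gria3 held without any 1 library, whereas Pou2f2 was lost without each of the 6 in turn (adjusted p up to 0.28), Tifab without GFP-negative replicates 1 or 2 or GFP-positive replicates 1, 2 or 3 (adjusted p up to 0.138) and Dtx4 without GFP-negative replicate 1 or GFP-positive replicates 1 or 2 (adjusted p up to 0.0907). Pou2f2 also did not pass with libraries shifted to the same median (adjusted p = 0.124).

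**Figure D2:**
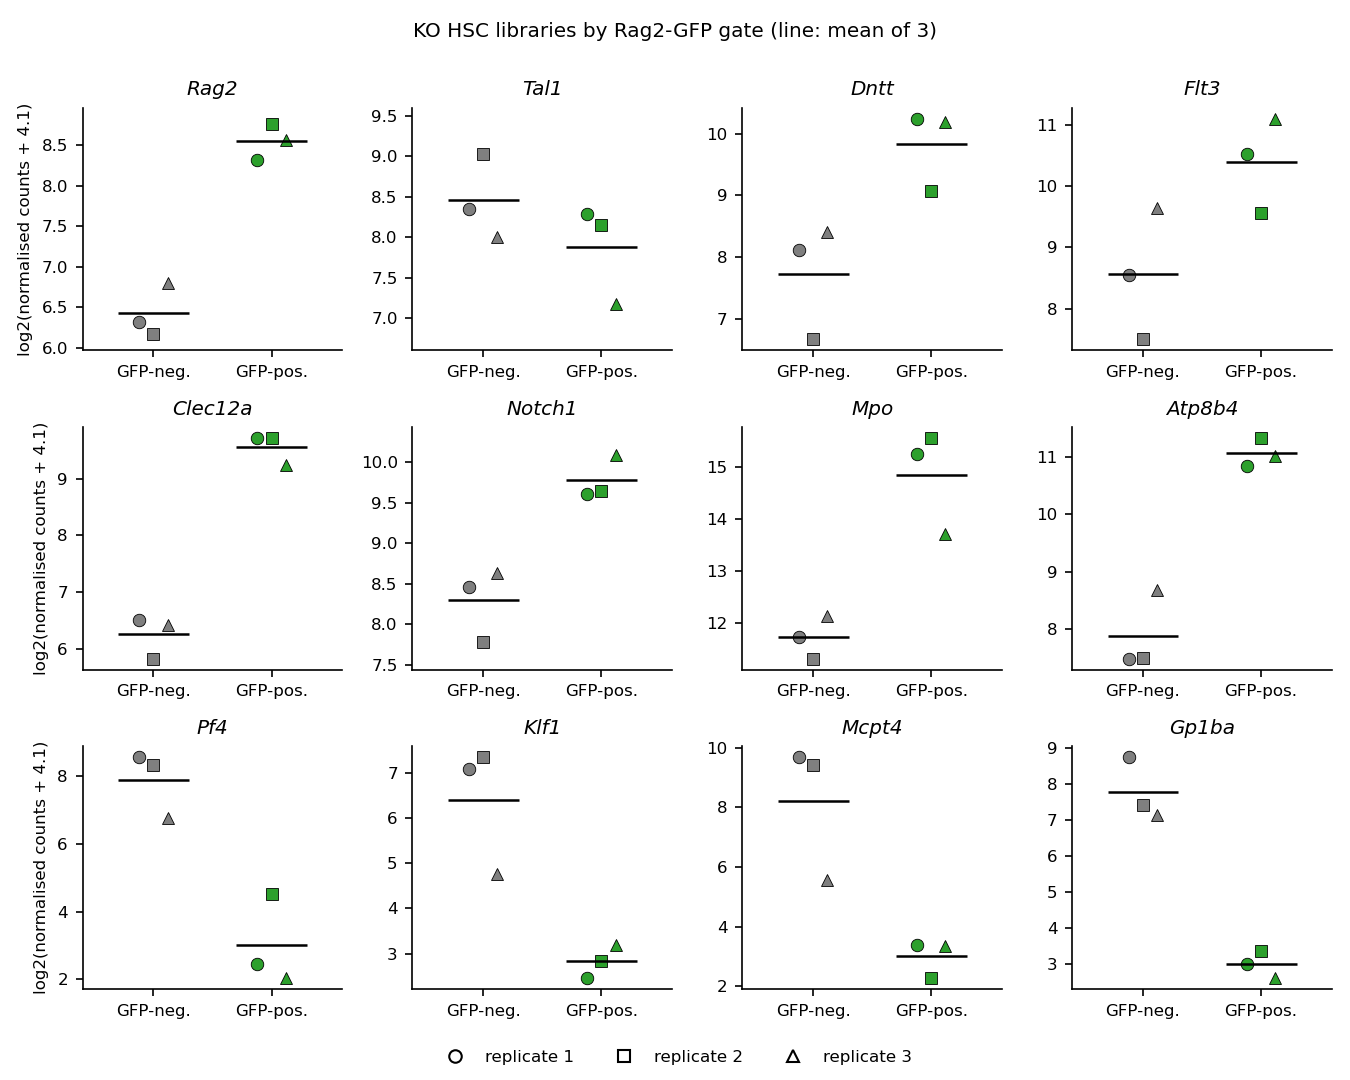
Level of 12 genes, log2 of normalised counts + 4.1 (y axis), in each KO HSC library, GFP-negative in grey and GFP-positive in green, with circles, squares and triangles for replicates 1, 2 and 3 and a line at the mean of 3. Groups are apart in every panel but Tal1 and Flt3, and GFP-negative replicate 3 lies below the other 2 in Pf4, Klf1, Mcpt4 and Gp1ba.

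Among 16 megakaryocyte and platelet genes 3 fell (Pf4, Gp1ba and Gp5) and none rose, with a median of -2.31. In GFP-positive cells 9 lay lower without overlap, where the share over all genes was 9.04%. Pf4, platelet factor 4, stood at 373, 316 and 106 in GFP-negative cells and 1.38, 19 and 0.00113 in GFP-positive cells (log2 change -4.88, SE 0.72, adjusted p = 0.000633). Gp1ba, the platelet receptor for von Willebrand factor, stood at 422, 166 and 138 against 3.9, 6.27 and 2.01 (log2 change -4.77, SE 0.81, adjusted p = 0.00359). Gp5, of the same receptor complex, stood at 149, 142 and 35.5 against 11.4, 10.3 and 0.00109 (log2 change -3.31, SE 0.64, adjusted p = 0.0105). All GFP-positive libraries of these genes stood at 19 or less. The call of Pf4 held without any 1 library, that of Gp1ba was lost without GFP-negative replicate 1 (adjusted p up to 0.0571) and that of Gp5 without GFP-negative replicates 1 or 2 or GFP-positive replicate 3 (adjusted p up to 0.142). Gp5 also did not pass from the 6 libraries alone (adjusted p = 0.0543) and with the smaller pseudocount (adjusted p = 0.102). Vwf, von Willebrand factor itself, stood at 98.4, 162 and 31.9 against 7.68, 3.88 and 5.02 (-3.16, adjusted p = 0.0828) and Itga2b, the platelet integrin CD41, at 802, 693 and 402 against 176, 159 and 33.1 (-2.57, adjusted p = 0.235). Plek, a protein kinase C substrate of platelets and white cells, overlapped (-0.26). Cavin2, a caveolar protein of platelets, also fell, from 175, 189 and 25.3 to values under 1 in all GFP-positive libraries (log2 change -4.60, SE 0.68, adjusted p = 0.000633). The list summed to 6888, 6516 and 4539 in GFP-negative and 3512, 2875 and 2749 in GFP-positive libraries.

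Among 27 erythroid genes 2 fell (Klf1 and Aqp1) and none rose, with a median of -1.65. 21 of them lay lower in GFP-positive cells without overlap, where the share over all genes was 9.04%. Only the transferrin receptor Tfrc had a log2 change above 0. Klf1, the master factor of red cell genes, stood at 132, 159 and 23 against 1.38, 3.09 and 5.02 (log2 change -3.57, SE 0.81, adjusted p = 0.0439). Aqp1, the red cell water channel, stood at 207, 295 and 37.6 against 5.16, 8.66 and 3.01 (log2 change -3.87, SE 0.77, adjusted p = 0.0127). In both, GFP-negative replicate 3 lay between the other GFP-negative libraries and the GFP-positive group. The call of Klf1 was lost without GFP-negative replicates 1 or 2 or GFP-positive replicates 1, 2 or 3 (adjusted p up to 0.414). That of Aqp1 was lost without GFP-negative replicates 1 or 2 or GFP-positive replicates 1 or 3 (adjusted p up to 0.203). In fits that left out 1 library, log2 changes ran from -4.39 to -3.10 for Klf1 and from -4.73 to -3.31 for Aqp1. Klf1 did not pass with the smaller pseudocount (adjusted p = 0.223), nor did Aqp1 (adjusted p = 0.0607). Gata1, the erythroid and megakaryocyte GATA factor, stood at 122, 259.5 and 122 against 26.5, 51 and 7.02 (-2.60, adjusted p = 0.257). Car1, carbonic anhydrase 1, stood at 534, 1349 and 137 against 32.9, 21.4 and 0.00115 (-4.90, adjusted p = 0.0765). Adult beta globin Hbb-bs stood at 1519, 1708 and 1113 against 238, 501 and 736 (-1.67, adjusted p = 0.962), and its division from the near-identical Hbb-bt is uncertain. Pklr, the red cell pyruvate kinase, which was not in the list, fell from 109, 141 and 16.2 to under 1 in every GFP-positive library (adjusted p = 0.00153). The list summed to 10523, 14001 and 7974 in GFP-negative and 3747, 4893 and 4283 in GFP-positive libraries, without overlap.

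Of 16 mast cell, basophil and eosinophil genes 3 fell (Tpsb2, Mcpt4 and Fcer1a) and none rose, with a median of -1.80. Over all genes 0.222% fell. Tpsb2, a tryptase of mast cell granules, stood at 1276, 1119.8 and 20.1 in GFP-negative cells and 2.64, 0.708 and 0.00114 in GFP-positive cells (log2 change -6.00, SE 1.14, adjusted p = 0.00876). Mcpt4, a chymase, stood at 816, 687 and 43.2 against 6.42, 0.708 and 6.02 (log2 change -5.23, SE 0.89, adjusted p = 0.00359). Fcer1a, the alpha chain of the IgE receptor, stood at 126, 186 and 16.3 against 0.0971, 0 and 0.00105 (log2 change -4.27, SE 0.79, adjusted p = 0.00762). These genes were high in GFP-negative replicates 1 and 2, far lower in replicate 3, and under 10 in every GFP-positive library. Without GFP-negative replicate 1, or without replicate 2, none of the list passed, and without replicate 3 6 members fell. The proteases Mcpt1 and Mcpt2, outside the list, also fell, but only as genes kept through the group where they are high. Mcpt1 stood at 8.86, 11.2 and 31.3 and Mcpt2 at 15.7, 60.9 and 41.9 in GFP-negative cells, and both near 0 in GFP-positive cells (log2 changes -2.22 and -3.05). Each passed in 3 of the 6 fits that left out a library and neither from the 6 libraries alone. The same filter kept Tpsb2 and Fcer1a, but not Mcpt4, only through GFP-negative KO HSC. Mast cell proteases have close paralogs, so the division of reads among them is uncertain. Of the 16 genes 6 lay lower in GFP-positive cells without overlap, among them Gata2, and none higher. The shares over all genes were 9.04% and 6.44%. Cpa3, carboxypeptidase A3, overlapped at 5451, 5465 and 1587 against 1617, 1875 and 1251 (-1.21). So did Ms4a2, the IgE receptor beta chain, at 438, 435 and 163 against 243, 331 and 136 (-0.49). Hdc and the basophil protease Mcpt8 had log2 changes above 0 (0.84 and 1.43), neither passing. The list summed to 17151, 16878 and 4379 in GFP-negative and 3841, 4844 and 2549 in GFP-positive libraries, so that GFP-negative replicate 3 lay within the GFP-positive range. Ctrl HSC summed to 2326, 2239 and 2176 in GFP-negative and 1002, 1898 and 2019 in GFP-positive cells, without overlap. Whether mast cell progenitors in the gate take part in these falls was not tested.

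Of 32 stem cell genes 1 fell and none rose, with a median of -1.03. In GFP-positive cells 16 lay lower without overlap, where the share over all genes was 9.04%. Egr1, an immediate early gene active in quiescent stem cells, stood at 389, 274 and 186 against 24, 7.87 and 1 (-4.52, adjusted p = 0.0517). Esam, an endothelial and stem cell adhesion molecule, stood at 31.7, 55.3 and 58.2 against 1.38, 0 and 1 (-3.39, adjusted p = 0.114). Kit, the receptor for stem cell factor, stood at 8066, 7347 and 5573 against 4204, 4672 and 3855 (-0.71, adjusted p = 0.283). None of these passed, although no library of one group reached the other. Hlf and Hoxa9, in contrast, overlapped, with log2 changes of -0.32 and 0.07. The list summed to 32210.1, 29389.6 and 23928 in GFP-negative and 16036, 17157 and 12346 in GFP-positive libraries, without overlap.

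No gene of 18 in the TAL1 complex list, with E and Id proteins, passed (median -0.33). Gata2, which partners TAL1 in stem and mast cells, stood at 4478, 5148 and 2142 against 1302, 1509 and 837 (-1.63, adjusted p = 0.999), without overlap. Lyl1, the closest relative of Tal1, overlapped at 593, 392 and 477 against 722, 667 and 465 (0.34). Lmo2 and Ldb1 had log2 changes of -0.27 and -0.30, and the E protein genes Tcf3 and Tcf12 -0.47 and -0.09. Id2, an inhibitor of E proteins, overlapped at 174, 163 and 24.1 against 29, 11.9 and 8.02 (-2.34, adjusted p = 0.536). In Ctrl HSC Id2 rose in GFP-positive cells (3.42, adjusted p = 0.0295). The difference between the 2 genotypes, -5.77, did not pass (adjusted p = 0.163).

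None of 32 cell cycle genes passed (median 0.11), and Mki67, the proliferation marker, stood at 9067, 11073 and 8416 against 12732, 9592 and 7081. None passed among 24 interferon response genes (median -0.14), 15 of dendritic cells and MHC class II (0.14), 16 of the immediate early and stress response (-0.39), 8 of stroma and endothelium (-0.10), 12 mitochondrially encoded (0.11) or 78 ribosomal protein genes (-0.14). Among falls outside all lists were Mt2, a metallothionein, at 84.6, 261 and 21.3 against values under 1 (adjusted p = 0.000633), and Trib2, a pseudokinase, at 299.6, 489.9 and 106 against 8.94, 7.07 and 0.00113 (adjusted p = 0.00728). Nckap1, of the WAVE actin complex, stood at 191, 300.3 and 85.4 against 12.7, 3.88 and 0.00111 (adjusted p = 0.00359). Ces2g, a carboxylesterase, Podxl, a sialomucin, Kcnc1, a potassium channel, and Kif26b, a kinesin, also fell, with log2 changes of -4.96, -4.18, -4.09 and -3.91. Ces2g, Mt2 and Nckap1 held without any 1 library, whereas Trib2 was lost without GFP-negative replicates 1 or 2 or GFP-positive replicate 3 (adjusted p up to 0.106), Podxl without GFP-negative replicates 1 or 2 or GFP-positive replicates 1 or 3 (adjusted p up to 0.133), Kcnc1 without GFP-negative replicates 1 or 2 or GFP-positive replicates 1 or 3 (adjusted p up to 0.12) and Kif26b without GFP-negative replicate 2 or GFP-positive replicates 1 or 3 (adjusted p up to 0.106). Podxl did not pass with the smaller pseudocount (adjusted p = 0.13), Kcnc1 with the smaller pseudocount (adjusted p = 0.137) and Kif26b from the 6 libraries alone (adjusted p = 0.0623). Kif26b overlaps Gm16564 on the opposite strand, and reads of the pair cannot be told apart. Txnip, an inhibitor of thioredoxin, also fell (-1.50, adjusted p = 0.00997), and it overlaps Gm15441 likewise and passed in 3 of these 6 fits.

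**Figure D3:**
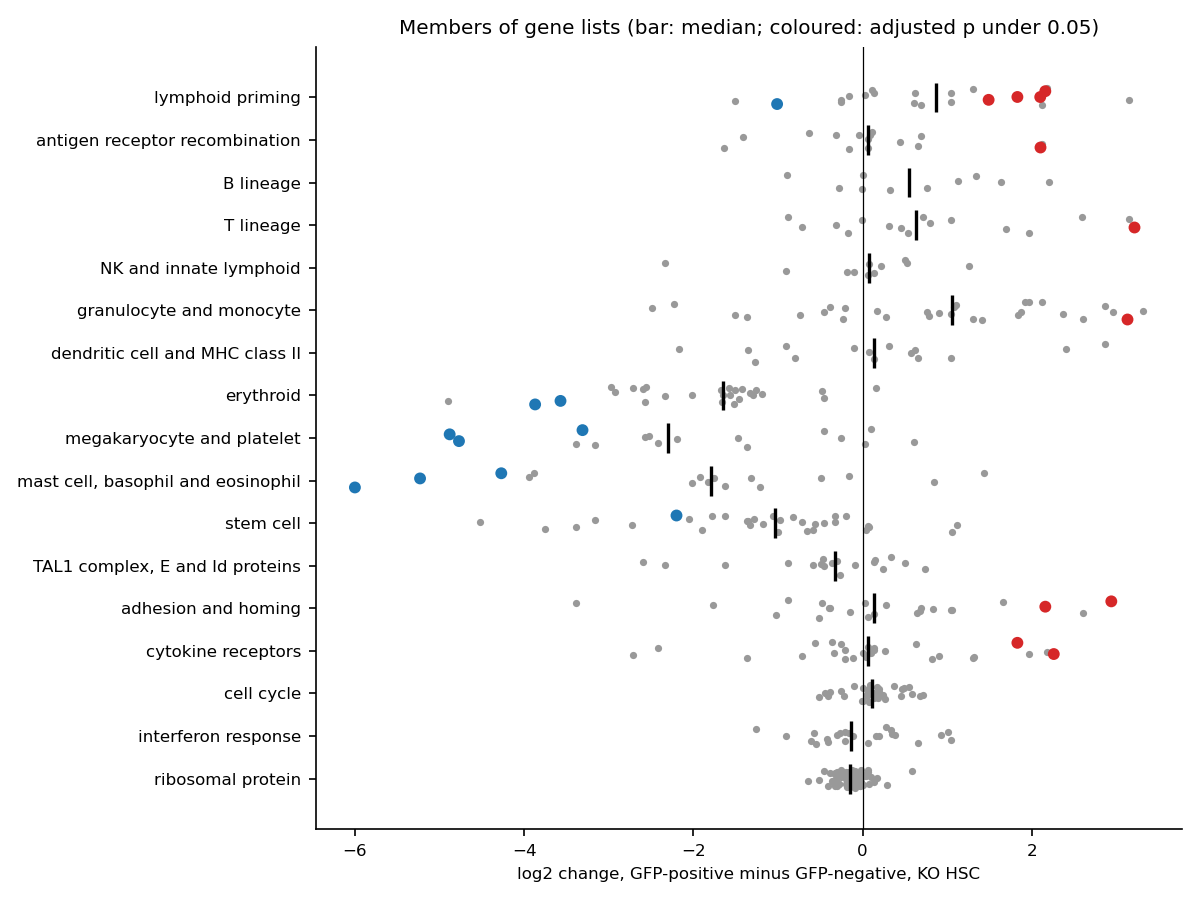
Log2 change, GFP-positive minus GFP-negative, of each tested member of 17 gene lists (x axis), one point a gene, with the median as a bar, rises in red, falls in blue and members that did not pass in grey. Erythroid, megakaryocyte, mast cell and stem cell lists lie to the left (medians -1.65, -2.31, -1.80 and -1.03), granulocyte and lymphoid priming lists to the right (1.06 and 0.87).

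The same comparison in Ctrl HSC, which shares no library with KO HSC, shows which of these differences are present with Tal1 intact. In Ctrl HSC 124 genes rose and 317 fell, 2.72% of those tested (0.765% and 1.95%), with a median over all genes of -0.24. GFP-positive replicate 2 of this group is a library of low detection, and without the low-detection pair 253 rose and 469 fell. Of the 25 KO rises 24 had the same sign there and 16 rose. Of the 36 KO falls 31 had the same sign and 19 fell, and no KO call passed in the opposite direction. Without that pair 19 of the KO rises and 19 of the KO falls passed with the same sign. Over all genes 55.6% shared their sign. Seen from Ctrl HSC, 105 of its 124 rises had the same sign in KO and 16 rose (12.9%), with medians of 2.23 in Ctrl and 0.72 in KO. Of its 317 falls 257 had the same sign in KO and 19 fell (5.99%), with medians of -3.09 and -0.65. The genes were chosen by passing in Ctrl, so these medians are given as a description.

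Platelet and erythroid falls of KO HSC were also falls of Ctrl HSC: Pf4 changed by -5.21 in Ctrl HSC and -4.88 in KO, Gp1ba by -4.35 and -4.77, and Klf1 by -4.46 and -3.57, and all passed in both. So did the rises of Mpo (2.28 and 3.13), Clec12a (3.55 and 3.31), Notch1 (2.07 and 1.49) and Dntt (3.87 and 2.10). The mast cell genes that fell in KO HSC did not pass in Ctrl HSC, where the log2 change was -0.26 for Tpsb2, 0.05 for Mcpt4 and -0.92 for Fcer1a. Of the 16 genes tested in their list 2 fell in Ctrl HSC, among them Gata2 (-4.62, adjusted p = 0.0263). The list median there was -0.54. Mcpt4 ranged from 0 to 0.0983 normalised counts in Ctrl GFP-negative cells. Cdh1 stood at 0 to 13.7 in Ctrl GFP-negative and 0.0293 to 0.23 in Ctrl GFP-positive cells (log2 change -0.65, adjusted p = 0.549). In the test of the difference between genotypes these genes did not pass: the log2 difference of differences was -5.74 for Tpsb2, -5.28 for Mcpt4, -3.35 for Fcer1a and 3.59 for Cdh1 (adjusted p = 0.444, 0.344, 0.512 and 0.163).

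**Figure D4:**
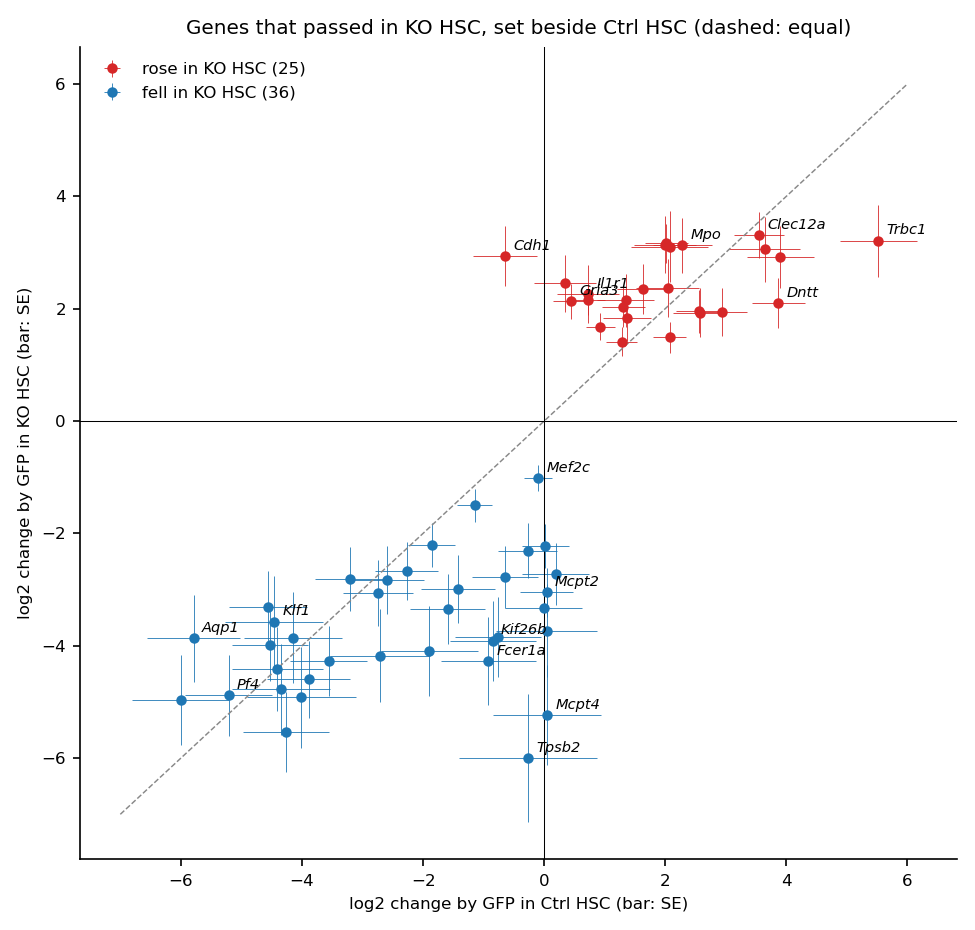
Log2 change by GFP in Ctrl HSC (x axis) and in KO HSC (y axis) of the 61 genes that passed in KO HSC, rises in red and falls in blue, with the SE as bars and a dashed line of equal change. Pf4, Klf1 and Clec12a lie near the line, whereas Mcpt4 and Tpsb2 lie below it near 0 in Ctrl HSC and Cdh1 above it.

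Across all genes, 1 passed the test of whether the GFP difference depends on genotype (0.00617% of those tested, with 1153 genes or 7.11% at an unadjusted p under 0.05). It was Bcl11b, a T lineage transcription factor, which the filter on low values kept only through the 3 GFP-positive Ctrl HSC libraries. It therefore had to differ, and its values are a description. In KO HSC it stood at 0.0501, 0 and 0.367 in GFP-negative and 1.38, 4.68 and 0.00105 in GFP-positive cells, near 0 throughout. In Ctrl HSC it stood at 0 to 0.0898 in GFP-negative and 79.3 to 186 in GFP-positive cells (log2 change 4.98). The fitted difference of differences was -4.52. Without any 1 of the 3 Ctrl GFP-positive libraries the gene falls below the filter on low values and has no test. With predicted genes left out, the next by p, none passing, were Fgfr1 (5.36), Mcpt2 (-3.08), Dusp23 (5.33) and Cd33 (-4.46), each at an adjusted p of 0.163.

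The GFP difference was also set beside that of KO LMPP, the CD135-positive cells of the same genotype, of which GFP-positive replicate 3 is a library of low detection. There 95 genes rose and 92 fell (1.15% in all, 0.586% and 0.567%). Of the 25 rises in KO HSC 23 had the same sign in KO LMPP and 12 rose. Of the 36 falls 26 had the same sign and 4 fell. Over all genes the log2 changes of KO HSC and KO LMPP had a Pearson r of 0.22, and their share of same sign was not computed. Without the low-detection pair 84 genes rose and 59 fell in KO LMPP, among them 11 of the rises and 3 of the falls of KO HSC. Mcpt4 fell there too (-4.60, adjusted p = 0.00908), and Rag2 rose (4.63). In limma's test of the difference between the populations, 0 genes passed (7 without the low-detection pair and 44 with array weights), with 1122 (6.92%) at an unadjusted p under 0.05. With predicted genes left out, the smallest p were of Cavin2 (-4.75), Mef2c (-1.82), Ikzf2 (1.91), Cd180 (-1.78) and Cmah (-2.02), at adjusted p from 0.0639 to 0.28. The predicted gene Gm15915 (-5.61) also stood at an adjusted p of 0.0639.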

How the data were processed

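RNA of sorted cells was sequenced for 76 cycles from a low-input library, per the labels' protocols. Per the submitters' processing notes, Trimmomatic 0.33, HTSeq 0.6.1 and edgeR were used on mm10, with no aligner named there. The deposited values are normalised counts, a signal that the authors scaled before deposit in a way not stated. Whole numbers (within 0.001) made up 0.59% of the values above 0, which gives no way back to reads, and a count model was not used.

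Genes with at least 1 ppm of a library's total in at least 3 libraries were kept, 16215 of 17149. A model of 8 group means was fitted to log2(value + 4.1) by limma 3.58.1 (trended empirical Bayes, R 4.3.3) using all 24 libraries, with Benjamini-Hochberg adjustment within each comparison and a threshold of 0.05. Gene coordinates are of the GENCODE annotation (16985 identifiers matched). On simulated data of this comparison, with 16215 genes run, 27% of 4-fold and 85% of 16-fold changes were recovered, and 5 of 16015 unchanged genes were called. The changes were added on the log2(value + 4.1) scale to normal draws without a floor near 0. For genes near 0 they are not fold changes of the values.

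Named genes were the 15 largest rises and falls that passed without overlap at a mean of at least 5 ppm, up to 8 passing and the 3 highest members of each list, the 5 smallest p of each interaction, and Tal1, Rag2, Rag1, Dntt, Il7r and Flt3. Predicted genes were left out, and a few genes are not reported here. Other genes named (list members given with an adjusted p above 0.05, Ncf1, Parp8, Txnip, Mcpt1) were chosen after their values were seen. Members, lists and rule were chosen with earlier results of these data known. Alternatives were other pseudocounts, filters, scalings, library sets, array weights and a replicate block.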

Additional observations from a re-analysis of the deposited data

Results flagged for a closer look

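Bcl11b is given here because its GFP difference was past the threshold in the comparison of genotypes, with a log2 difference of differences of -4.52. The filter on low values kept it only through GFP-positive Ctrl HSC, the group where it is high, so the value is a description and no dependence on genotype is read from it. It was also not past the threshold under 3 of the alternatives. Bcl11b was near 0 in all 6 KO HSC libraries and present in GFP-positive Ctrl HSC, of which replicate 2 is a library of low detection.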

How the results depend on the processing

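The count of 61 genes stayed within 1.5 times under both pseudocounts (51 and 89), both filters (70 and 46) and both scalings (61 and 57). It was 115 from the 6 KO HSC libraries alone, 146 without the 2 low-detection libraries, and array weights gave 242. Leaving out 1 library gave 19 to 97, lowest without GFP-negative replicate 1 and highest without GFP-negative replicate 3. Among the 37 named genes that passed, 29 to 37 were kept under these settings and 15 to 33 when 1 library was left out, and none reversed. The genotype interaction count of 1 became 0 with the lower pseudocount, 0 with the stricter filter, 0 with array weights, 2 with the higher pseudocount and 0 to 18 without 1 library, highest without Ctrl HSC GFP-positive replicate 3. For Bcl11b the adjusted p was 0.105, 0.0699 and 0.0737 in the first 3 of these, and under its other alternatives it ran from 7.72e-05 to 0.0114. Without both libraries of low detection Bcl11b was not tested and a different gene passed. The population interaction count of 0 became 7 without them, 44 with array weights and 0 to 4 without 1 library. The causes were not tested.

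Same-numbered KO HSC libraries had correlations of deviations of 0.13, 0.058 and 0.138, and each library correlated best with its own number, a hint from the data only, so they are taken to share only a number. With that number as a replicate block, 77 genes passed over 24 libraries and 269 from the 6 alone, with 24 of the 25 rises (all but Il1r1) and all 36 falls kept over 24 libraries.

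With 3 libraries a side and unknown depth, 27% of simulated 4-fold changes passed, so a gene that did not pass is not shown to be equal.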
